A study of Mus musculus with 3 samples.

Results

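Cdkn1a, the 3 GADD45 genes and 6 further genes of the p53 response were followed through warm ischemia and reperfusion of the mouse liver. The 10 genes are Trp53, Mdm2, Cdkn1a, Ccng1, Btg2, Gadd45a, Gadd45b, Gadd45g, Sesn2 and Trp53inp1. They were picked by symbol from the 23361 genes of the deposited expression tables, with earlier results of these data known, so their FPKM values and folds are a description and no test was made on them. FPKM is the number of sequenced fragments scaled to transcript length and to the mapped fragments of the library. All 10 were found, and all 10 reached an FPKM of 1 in 1 or more libraries, as did 10792 genes in all.

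The data are mRNA profiles of liver tissue from C57BL/6J mice labelled male and 8 to 10 weeks old. Each of the 3 conditions has 1 library, and the study's methods do not state which lobes were sampled. All mice were fasted before surgery, anesthetized with chloral hydrate and given a midline laparotomy. The sham group had no vessel clamped, and its livers were taken 90 min after the laparotomy. In the warm ischemia (WI) group the vessels and bile duct to the left and median lobes were clamped for 90 min, and in the ischemia-reperfusion (IR) group the same clamp of 90 min was followed by 120 min with the clamp removed. The sham mice were not followed for the further 120 min, so reperfusion and the added time after surgery cannot be told apart. The study's methods describe several mice per group and do not state whether a library holds the RNA of 1 mouse or of several. With 1 library per condition, no difference below has a replicate check and no test was possible.

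The sex-linked genes go against the label of 2 libraries. Xist, the RNA that coats an inactive X chromosome, had an FPKM of 18.9 in sham, 20.1 in WI and 1.29 in IR. Of 4 Y-linked genes, Eif2s3y was listed at 0 in sham and WI and at 13.2 in IR, and Ddx3y at 0, 0.00849 and 8.58 in the same order. Kdm5d and Uty were likewise at 0 in sham and WI and above 0 in IR. These 2 samples are thus alike in these genes, and the IR sample differs from both, so a difference in sex between the libraries and reperfusion cannot be told apart in any comparison with the IR sample. All 10 genes described here lie on autosomes.

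The transcription factor p53, encoded by Trp53, is kept low in resting cells by the ubiquitin ligase Mdm2 and builds up after DNA damage and other stresses, mostly through a slower breakdown of the protein. It then binds response elements in its target genes. Cdkn1a encodes p21, which stops the cell cycle by inhibiting cyclin-dependent kinases and limits hepatocyte division after liver injury. Several of these genes are also reached by other routes, since the GADD45 genes and Btg2 answer to stress kinases, NF-kB, hormones and growth factors, and Sesn2 to the integrated stress response.

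The promoters of the 5 genes that rose from the WI sample to the IR sample are shown because the mRNA values below turn on these genes. They run from 250 bases before to 50 bases after the annotated start, 5′ to 3′ on the strand of the gene, and come from RefSeq on GRCm38.p6 (mm10), the build of the files. Capitals mark matches to the motifs searched on both strands, which were the p53 full site (2 p53 half-sites with 0 to 13 bases between them), the p53 half-site, the NF-kB site, TGACGTCA (the cyclic AMP response element), TGANTCA (the AP-1 site), TATAAA and CCAAT. A full site contains half-sites, and no other pair of these motifs overlaps in the 5 promoters shown.
Cdkn1a (chr17:29090729-29091028, plus strand): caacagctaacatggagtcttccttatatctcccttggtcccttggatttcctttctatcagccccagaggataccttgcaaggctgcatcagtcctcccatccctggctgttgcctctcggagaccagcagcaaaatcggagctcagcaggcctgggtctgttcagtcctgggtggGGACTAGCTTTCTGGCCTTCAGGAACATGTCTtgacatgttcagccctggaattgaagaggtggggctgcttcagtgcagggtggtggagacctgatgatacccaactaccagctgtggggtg
Btg2 (chr1:134079106-134079405, minus strand): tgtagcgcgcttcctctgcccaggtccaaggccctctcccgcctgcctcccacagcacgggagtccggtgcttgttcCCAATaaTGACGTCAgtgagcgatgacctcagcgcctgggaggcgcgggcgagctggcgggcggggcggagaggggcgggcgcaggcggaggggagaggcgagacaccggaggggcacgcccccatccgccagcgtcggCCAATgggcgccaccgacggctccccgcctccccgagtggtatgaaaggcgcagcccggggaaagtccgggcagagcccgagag
Gadd45a (chr6:67037358-67037657, minus strand): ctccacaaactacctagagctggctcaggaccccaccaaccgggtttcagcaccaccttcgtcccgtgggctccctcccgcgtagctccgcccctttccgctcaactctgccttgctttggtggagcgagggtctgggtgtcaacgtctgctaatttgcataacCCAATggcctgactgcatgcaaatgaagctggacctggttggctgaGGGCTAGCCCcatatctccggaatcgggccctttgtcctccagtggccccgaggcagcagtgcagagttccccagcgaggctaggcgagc
Gadd45b (chr10:80929841-80930140, plus strand): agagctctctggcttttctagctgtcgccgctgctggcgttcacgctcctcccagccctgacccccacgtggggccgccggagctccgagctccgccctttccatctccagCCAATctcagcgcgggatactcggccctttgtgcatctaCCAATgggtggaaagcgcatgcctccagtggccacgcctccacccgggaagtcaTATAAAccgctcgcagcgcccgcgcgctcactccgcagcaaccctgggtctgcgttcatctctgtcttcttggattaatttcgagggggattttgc
Gadd45g (chr13:51846425-51846724, plus strand): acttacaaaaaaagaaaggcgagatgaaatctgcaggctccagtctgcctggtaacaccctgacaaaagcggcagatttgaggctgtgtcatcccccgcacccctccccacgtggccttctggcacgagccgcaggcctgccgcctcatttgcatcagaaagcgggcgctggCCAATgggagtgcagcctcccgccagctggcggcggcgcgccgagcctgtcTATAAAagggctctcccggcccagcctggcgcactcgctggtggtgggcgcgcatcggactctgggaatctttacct

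In the Cdkn1a promoter the capitals run from position -73 to -42 relative to the start and hold 2 p53 half-sites with a spacer of 12 bases. Such a full site stood in 24 of the 32851 promoters of the table, or 0.0731%. The letters directly after the Cdkn1a site, tgacatgttc, miss a half-site only at their first letter and so are not marked. With that mismatch allowed they would pair, without a spacer, with the half-site at -51 to -42. The second annotated start of Cdkn1a, with a promoter at chr17:29093519-29093818, held none of these motifs. A single p53 half-site, which 8.36% of all promoters hold, stood in the promoters of Gadd45a, at -40 to -31, and of Mdm2, Ccng1 and Trp53. The Btg2 promoter held TGACGTCA at -166 to -159, found in 1.79% of promoters, beside 2 copies of CCAAT, which 37.4% of promoters hold. TATAAA, present in 13.6% of promoters, lay at -46 to -41 in Gadd45b and at -27 to -22 in Gadd45g. The Trp53 promoter carried the NF-kB site across its start, as did 4.51% of promoters somewhere in the window, and TGANTCA, in 7.81% of promoters, was found in none of the members' promoters. These are exact matches of letters, so a site with a mismatch is not marked, and they are not measured binding. Only the window around each annotated start was searched. A gene without a site here may hold one farther upstream or in an intron. The table held 9 of the 10 genes, with Trp53inp1 missing.

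**Figure D1:**
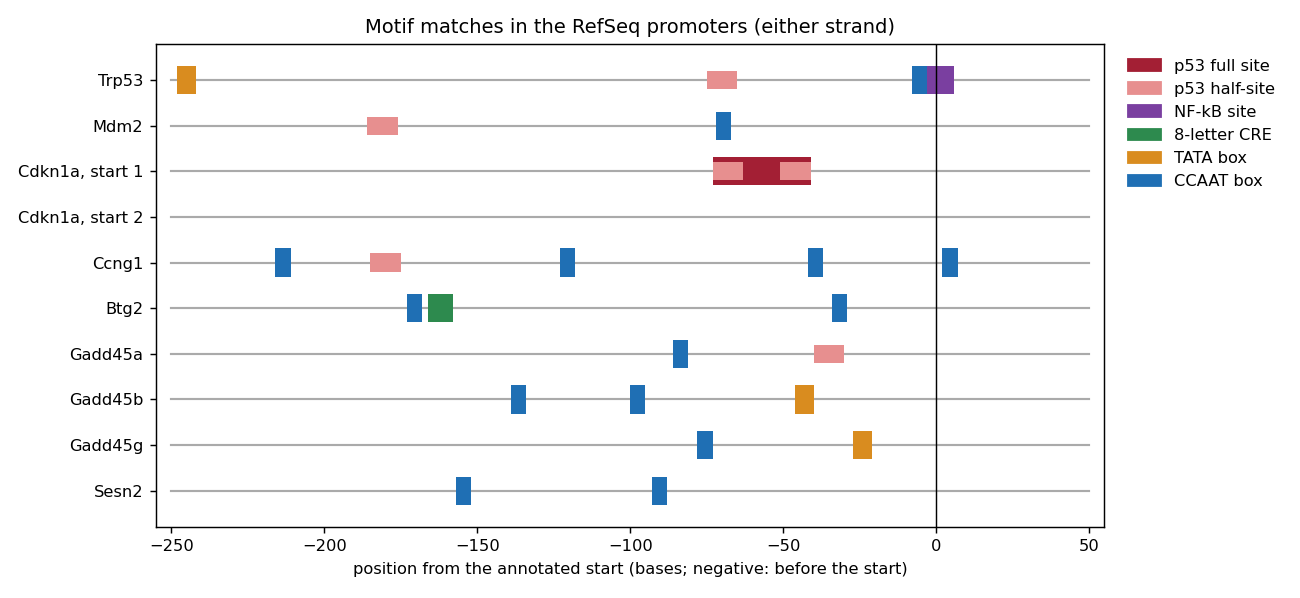
Motif matches on either strand in the promoters of 9 genes (10 annotated starts), plotted by position in bases from the start, with 1 colour per motif. The p53 full site appears once, at -73 to -42 of the first Cdkn1a start, and the second Cdkn1a start has no match.

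Of the 20 genes whose promoters held a p53 full site, 8 were in the files and 4 passed the filter of FPKM 1 in at least 1 library. Among these 4, Cdkn1a was the gene that differed at least 2-fold in each of the 3 comparisons, though between IR and sham by only 0.55 in TPM, under 2-fold. The other 3 differed less than 2-fold in all comparisons. Of all genes, 1.1% fell at least 2-fold from sham to WI, 5.78% rose from WI to IR and 5.35% were higher in IR than in sham. Cdkn1a was chosen with its values known, and a link between the site and the changes was not tested.

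Each FPKM was deposited with its lower and upper 95% bounds, which carry the error of the authors' counting model and not the variation between mice. The bounds lay 46.6% to 73.9% of the FPKM away from it for the 10 genes, against a median of 51.9% to 52.0% over the genes that passed the filter. Fragment counts per gene are not in the files used here, so the number of fragments behind an FPKM is unknown. Differences are in log2(FPKM + 1), which understates the change of low genes, with a 95% interval made from the bounds of both libraries. A gene is said to rise or fall where FPKM + 1 differed at least 2-fold. The summed FPKM was 475754 in sham, 487912 in WI and 712423 in IR. Rescaling each library to the same sum (TPM) therefore moved the median change of all genes by -0.04 for WI against sham, by -0.50 for IR against WI and by -0.54 for IR against sham, and results that depend on it are marked. In TPM 3.57% of all genes were at least 2-fold higher and 11% lower in IR than in WI, and 2.96% were higher and 14.4% lower in IR than in sham. The 10 highest genes made up 14.9% of the sum in sham, 14.8% in WI and 20.8% in IR. In that order 1, 1 and 7 genes were flagged as holding too many fragments. Scaling by the median ratio of genes at FPKM of at least 1 in all libraries moved the 3 medians by -0.03, -0.04 and -0.07.

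Trp53 itself (chr11:69580359-69591873) had an FPKM of 5.01 in sham (95% bounds 2.15 to 7.87), 5.50 in WI (2.58 to 8.42) and 9.34 in IR (4.45 to 14.2). Its level was highest in the IR sample, and the bounds of all 3 samples overlapped. The differences were 0.11 for WI against sham, 0.67 for IR against WI (95% interval -0.40 to 1.70) and 0.78 for IR against sham (-0.30 to 1.87). None reached 2-fold. After rescaling to TPM the last 2 differences were 0.20 and 0.29, beside a median of -0.45 over all genes in both comparisons.

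Mdm2 (chr10:117688905-117710716), at once a target of p53 and the ligase that removes it, had an FPKM of 6.53 in sham (3.42 to 9.63), 6.18 in WI (3.22 to 9.14) and 6.52 in IR (3.42 to 9.62). These are the most even values of the 10 genes together with those of Ccng1. The largest of its differences was -0.07 on the log2 scale, between WI and sham, with an interval of -0.98 to 0.85 that leaves room for a change of nearly 2-fold either way. In TPM its difference between IR and sham was -0.54, beside a median of -0.45 over all genes.

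Cdkn1a (chr17:29090986-29100722) had an FPKM of 21.5 in sham (11.4 to 31.6), 0.619 in WI (0.161 to 1.08) and 47.5 in IR (25.1 to 69.9). The WI sample stood far below the others, and its bounds overlapped with neither of theirs, while the bounds of the sham and IR samples overlapped. Among all genes that passed the filter, its level stood at percentile 79.0 in sham, 2.24 in WI and 86.7 in IR.

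In the WI sample Cdkn1a fell by 3.80 on the log2 scale relative to sham (interval -4.52 to -2.86), the 4th lowest of 10792 changes, and the FPKM itself was 34.7 times higher in the sham sample. From WI to IR it rose by 4.91 (3.94 to 5.63), the 18th highest change, with an FPKM 76.8 times higher. Both folds rest on the low WI value, so they move with the pseudocount. With none they were -5.12 and 6.26 on the log2 scale. The IR sample was above sham by 1.11 (0.06 to 2.13), 2.21 times in FPKM, and the 484th highest change. That last rise was 0.55 after rescaling to TPM, under 2-fold, and 1.03 after scaling by the median ratio.

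Cdkn1a has 2 close relatives, Cdkn1b (p27) and Cdkn1c (p57), which inhibit the same kinases. Cdkn1b had an FPKM of 7.08, 4.92 and 6.23 in the sham, WI and IR samples and Cdkn1c was lower still. Neither differed 2-fold in any comparison. Cdkn1a thus held 71.5% of the summed FPKM of the 3 genes in sham, 9.17% in WI and 86.7% in IR, and Cdkn1b held the largest share in the WI sample, 72.9%.

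Ccng1 (chr11:40748552-40755286), which encodes cyclin G1 and is a long known p53 target, had an FPKM of 8.30 in sham (4.43 to 12.2), 8.59 in WI (4.58 to 12.6) and 7.93 in IR (4.22 to 11.6). No sample stood apart. The differences ran from -0.10 to 0.04 on the log2 scale, and the interval between IR and WI was -1.03 to 0.82. In TPM the difference between IR and WI was -0.62, beside a median of -0.45 over all genes.

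Btg2 (chr1:134074865-134079155), an antiproliferative cofactor of the CCR4-NOT deadenylase that shortens mRNA tails, had an FPKM of 59.4 in sham (29.8 to 88.9), 23.5 in WI (12.5 to 34.4) and 85.3 in IR (41.0 to 130). The WI sample was lowest, and its bounds were apart from those of the IR sample but overlapped those of sham. Btg2 fell by 1.30 on the log2 scale from sham to WI (-2.33 to -0.20) and rose by 1.82 from WI to IR (0.65 to 2.86). The IR sample differed from sham by 0.52 (-0.67 to 1.65), or by -0.06 in TPM.

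The GADD45 proteins are small stress sensors that bind p21, proliferating cell nuclear antigen and the kinase MAP3K4, through which they act on p38 and JNK. Gadd45a (chr6:67035096-67080652) is the classical p53 target among them. Its FPKM was 6.73 in sham (2.88 to 10.6), 6.90 in WI (2.99 to 10.8) and 44.7 in IR (23.0 to 66.4). The sham and WI samples were alike, and the bounds of the IR sample were apart from both. Gadd45a differed by 0.03 between WI and sham, rose by 2.53 from WI to IR (1.43 to 3.67) and was higher by 2.56 in IR than in sham (1.47 to 3.70), 6.64 times in FPKM. The locus given for it in the files also spans the long noncoding RNA E230016M11Rik, which overlaps it (67036599 to 67080652), and the use of strand in counting is not given in the sources used here. The listed FPKM of that RNA was 0.583, 0.673 and 2.85 in the sham, WI and IR samples, far under that of Gadd45a.

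Gadd45b (chr10:80930091-80932204), which answers to NF-kB and TGF-beta and curbs JNK signaling in hepatocytes, had an FPKM of 12.6 in sham (6.39 to 18.9), 3.90 in WI (1.59 to 6.20) and 56.6 in IR (30.2 to 82.9). All 3 samples had bounds apart from each other, which held for no other gene of the 10. It fell by 1.48 on the log2 scale from sham to WI (-2.54 to -0.43) and rose by 3.55 from WI to IR (2.51 to 4.62). In the IR sample it was 2.08 above sham (1.04 to 3.12), 4.47 times in FPKM.

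Gadd45g (chr13:51846675-51848474), a cytokine and growth hormone responsive member, was the most abundant of the 10 genes in the sham and IR samples. Its FPKM was 93.6 in sham (49.4 to 138), 26.9 in WI (14.3 to 39.5) and 247 in IR (119 to 375). The WI sample was lowest with bounds apart from both others, and the bounds of the sham and IR samples overlapped. Gadd45g fell by 1.76 from sham to WI (-2.79 to -0.71) and rose by 3.15 from WI to IR (1.97 to 4.21). It was higher by 1.39 in IR than in sham (0.20 to 2.48). This was 0.81 in TPM, under 2-fold, and 1.31 after scaling by the median ratio.

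Summed over the 3 GADD45 genes, the FPKM was 113 in sham, 37.7 in WI and 348 in IR. Gadd45g supplied 82.9%, 71.3% and 70.9% of the sum in that order. The share of Gadd45a was largest in the WI sample, at 18.3%, against 5.96% in sham and 12.8% in IR, and that of Gadd45b was 11.2%, 10.3% and 16.2%.

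Sesn2 (chr4:132492807-132510456), a sestrin that restrains mTORC1 and supports peroxide defense, had an FPKM of 5.17 in sham (2.58 to 7.75), 2.20 in WI (0.952 to 3.45) and 3.63 in IR (1.73 to 5.54). The WI value was lowest, and all bounds overlapped. Its difference between WI and sham was -0.94 on the log2 scale (-1.82 to -0.03), just inside 2-fold with the pseudocount of 1. It was past 2-fold in TPM (-1.10) and with smaller pseudocounts (-1.19 at 0.1, -1.23 at 0.01 and -1.23 with none). The IR sample differed from WI by 0.53 and from sham by -0.41.

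Trp53inp1 (chr4:11156441-11174377), a stress protein that promotes p53 phosphorylation and autophagy, had an FPKM of 48.8 in sham (23.1 to 74.4), 26.9 in WI (12.9 to 40.9) and 33.2 in IR (15.7 to 50.6). Sham was highest here, and all bounds overlapped. The WI sample differed from sham by -0.84 (-2.00 to 0.36), the IR sample from WI by 0.29 (-0.89 to 1.46) and from sham by -0.54 (-1.74 to 0.66). In TPM the last was -1.12, past 2-fold.

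**Figure D2:**
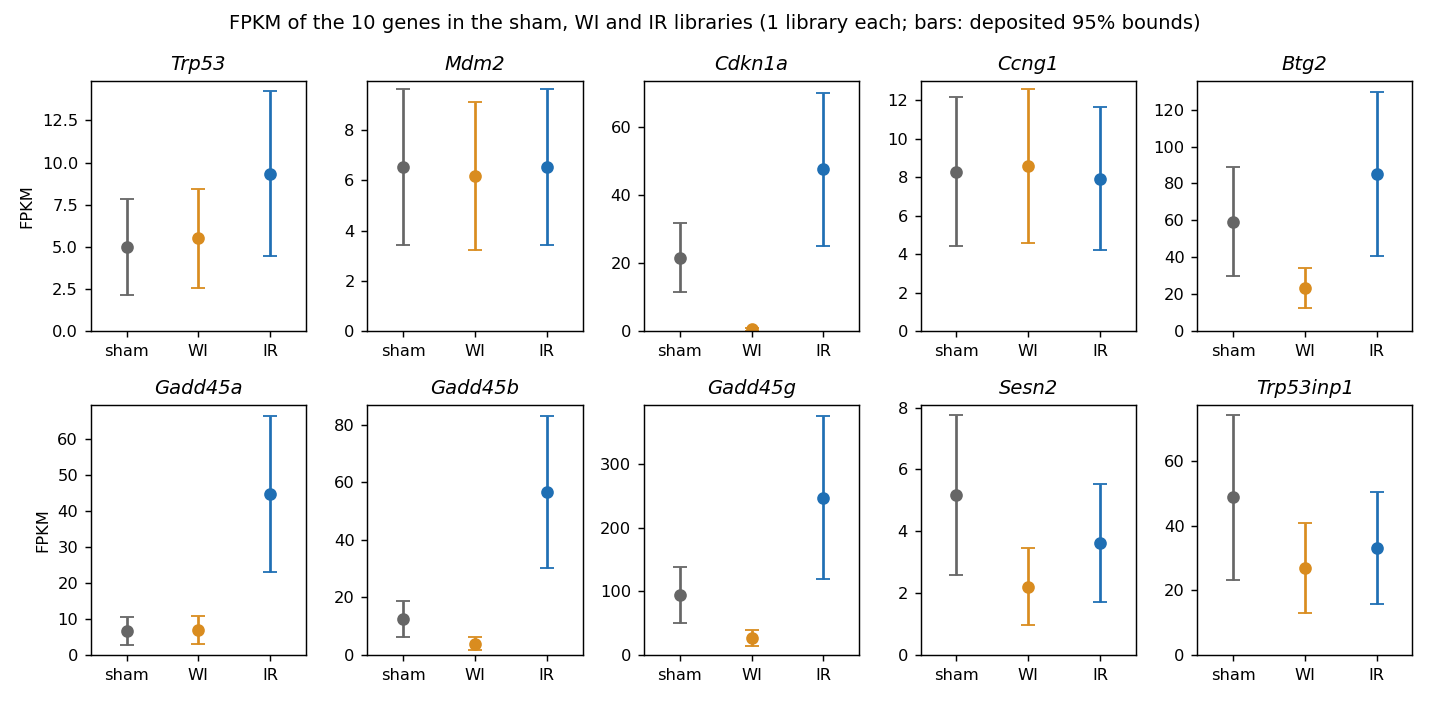
FPKM of each of the 10 genes in the sham, WI and IR libraries (1 library each, linear axes that start at 0 and differ in range between genes). Points are FPKM and bars the deposited 95% bounds, and Cdkn1a in the WI library lies at 0.619, below both 21.5 in sham and 47.5 in IR.

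The comparison of WI with sham sets ischemia without reperfusion beside no clamping, with 1 library for each. In it 4 of the 10 genes fell at least 2-fold (Cdkn1a, Btg2, Gadd45b and Gadd45g) and none rose, where 1.1% of all 10792 genes fell as much and 0.751% rose. The deposited bounds did not overlap for 3 of the 4, all but Btg2, which was so for 0.482% of all genes. The median change of the 10 genes was -0.89 on the log2 scale, beside 0.02 for all genes. A median of this kind describes genes that were chosen with their values known.

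The comparison of IR with WI sets the sample with reperfusion beside the one without. The time after surgery and the sex-linked genes also differ between these samples. Here 5 of the 10 genes rose at least 2-fold (the same 4 and Gadd45a) and none fell, where 5.78% of all genes rose and 1.43% fell. All 5 had bounds that did not overlap, as did 3.22% of all genes in that direction. The median of the 10 genes was 1.24, beside 0.03 for all genes, and 0.75 beside -0.45 after rescaling to TPM, with the same 5 genes past 2-fold.

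Between IR and sham, which joins both stages, 4 of the 10 genes were at least 2-fold higher (Cdkn1a, Gadd45a, Gadd45b and Gadd45g) and none lower, where 5.35% of all genes were higher and 2.15% lower. The bounds of Gadd45a and Gadd45b alone did not overlap, as for 2.7% of all genes in that direction. The median of the 10 genes was 0.65, beside 0.05 for all genes. After rescaling to TPM, 2 of the 10 were higher (Gadd45a and Gadd45b) and 1 lower (Trp53inp1), where 2.96% of all genes were higher and 14.4% lower, with a median of 0.12 beside -0.45 for all genes. Scaling by the median ratio left Cdkn1a, Gadd45a, Gadd45b and Gadd45g higher and none lower. There 4.75% of all genes were higher and 2.68% lower.

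**Figure D3:**
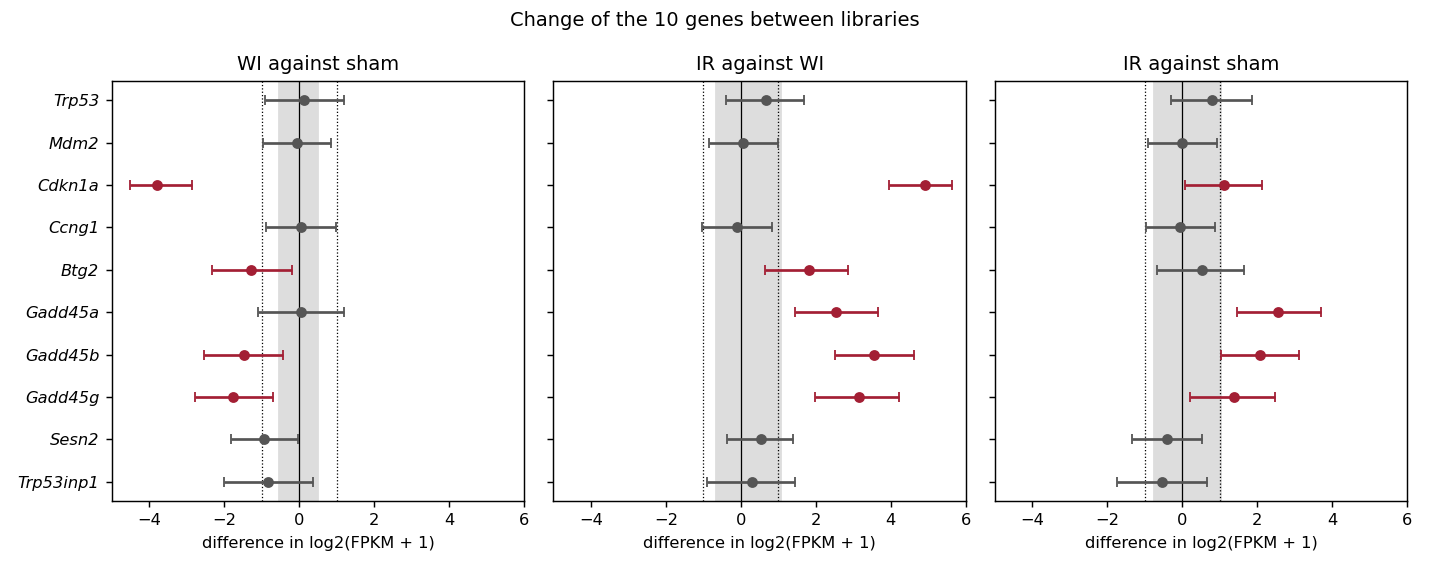
Difference in log2(FPKM + 1) of each of the 10 genes in the 3 comparisons, with 95% intervals from the deposited bounds; red marks differences of at least 2-fold, the dotted lines mark 2-fold and the grey band spans the 5th to the 95th percentile of all 10792 genes. In IR against WI, 5 genes lie between 1.82 and 4.91, and the other 5 between -0.10 and 0.67.

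A fall of at least 2-fold in the WI sample followed by a rise of at least 2-fold in the IR sample was found for 4 of the 10 genes, Cdkn1a, Btg2, Gadd45b and Gadd45g, and for 57 of the 10792 genes (0.528%). Both steps share the WI library, so a low value there enters both of them. Gadd45a differed from these 4 in the first step, where its difference was 0.03.

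**Figure D4:**
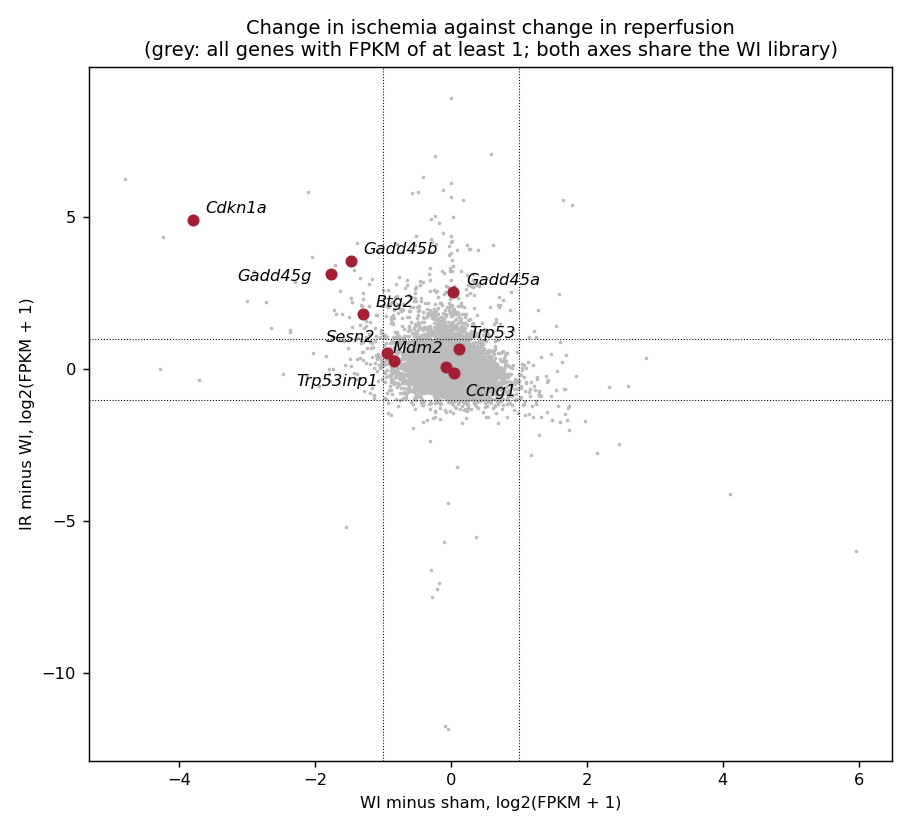
Difference between WI and sham (horizontal) against difference between IR and WI (vertical), both in log2(FPKM + 1), for all 10792 genes in grey and the 10 genes in red, with dotted lines at 2-fold. Both axes share the WI library, and Cdkn1a lies at -3.80 and 4.91, far to the upper left of most genes.

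Ordered by FPKM, which is scaled to transcript length, the 10 genes in the sham sample ran Gadd45g, Btg2, Trp53inp1, Cdkn1a, Gadd45b, Ccng1, Gadd45a, Mdm2, Sesn2 and Trp53. In the WI sample Trp53inp1 (26.9) came level with Gadd45g (26.9) at the top, and Cdkn1a moved to the last place. In the IR sample the order was Gadd45g, Btg2, Gadd45b, Cdkn1a, Gadd45a, Trp53inp1, Trp53, Ccng1, Mdm2 and Sesn2. The bounds of neighbours overlapped in all 9 pairs in the sham and WI samples and in 8 of 9 pairs in the IR sample, the exception being Trp53inp1 and Trp53. The 5 genes that rose from WI to IR were the 5 most abundant of the 10 in the IR sample. The rise and this rank both use the IR value, so they are not independent. Gadd45g, Btg2, Cdkn1a and Gadd45b were also among the 5 most abundant in sham.

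The genes whose levels over the 3 libraries were most like those of Cdkn1a were found by the distance between log2(FPKM + 1) values centred on each gene's mean, among 10792 genes. The 5 nearest were Snora70 at a distance of 0.71, Hbb-b2 at 0.99, Serpina4-ps1 at 1.19, Mt2 at 1.26 and Eif4ebp3 at 1.49. Snora70, a small nucleolar RNA, was listed at 0 in the WI sample, and its upper bound was 1111 in sham for an FPKM of 17.9. Hbb-b2, a beta globin gene of a multicopy cluster, had lower bounds of 0 in all 3 samples.

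The other 3 had bounds in the WI sample that were apart from those of both other samples. Serpina4-ps1, a pseudogene, had an FPKM of 7.04 in sham, 0.0753 in WI and 9.08 in IR. Mt2, a metallothionein that binds zinc, had 1493, 359 and 4713 in that order, and Eif4ebp3, an inhibitor of translation initiation, had 78.9, 15.2 and 118. Among the members, Gadd45g was the 7th nearest gene to Cdkn1a at 1.56, Gadd45b the 9th at 1.65, Btg2 the 48th at 2.32 and Gadd45a the 172nd at 2.73. With 3 libraries, such likeness says only that the values ran in parallel.

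Of 47 other genes known as p53 targets, 39 passed the filter. Between WI and sham 3 of them fell and 1 rose at least 2-fold, where 1.1% of all genes fell and 0.751% rose. Their median change was -0.0017 on the log2 scale. The stress inducible Ddit4, an inhibitor of mTORC1, had an FPKM of 26.9 in sham, 3.22 in WI and 18.8 in IR, with WI bounds apart from both others. The kinase gene Plk3 had 59.5, 27.0 and 96.4 in the same order, and Ccng2, which encodes cyclin G2, had 11.4, 4.77 and 11.4. Bcl6, a transcriptional repressor, rose from 1.52 in sham to 5.20 in WI, with bounds apart, and stood at 2.82 in IR.

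From WI to IR, 8 of the 39 rose and none fell, with a median of 0.08, where 5.78% of all genes rose and 1.43% fell. After rescaling to TPM, however, 4 were higher and 3 lower, where 3.57% of all genes were higher and 11% lower. Beside Plk3, Ccng2 and Ddit4, the 8 were Ier3, Epha2, Fas, Aen and Gdf15. Ier3, an immediate early gene of cell survival, had an FPKM of 1.68 in sham, 2.14 in WI and 18.8 in IR, with IR bounds apart from both others. The death receptor gene Fas had 9.29, 9.36 and 24.6, and the apoptosis enhancing nuclease gene Aen 3.33, 3.04 and 8.64, with bounds overlapping in both. Epha2, a receptor tyrosine kinase, had 6.74, 4.13 and 14.1, and Gdf15, a stress hormone, 29.1, 22.4 and 45.9.

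Between IR and sham, Fas, Aen and Ier3 were higher among the 39 and Trp53inp2, an autophagy gene, was lower (59.2 in sham and 27.4 in IR). Over all genes 5.35% were higher and 2.15% lower. The median of the 39 was -0.07. In TPM the split of the 39 was 1 higher (Ier3) and 6 lower, where 2.96% of all genes were higher and 14.4% lower. Plk3, Ccng2 and Ddit4 fell and then rose at least 2-fold like Cdkn1a, Btg2, Gadd45b and Gadd45g, though in TPM the second step of Ccng2 was under 2-fold. Bax, the pore former of mitochondrial apoptosis and a textbook p53 target named here after its values were seen, had an FPKM of 15.4 in sham, 15.9 in WI and 20.4 in IR.

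None of the 20 measured regulators of p53, of 25 listed, passed 2-fold in any comparison, and their medians were -0.04, -0.15 and -0.20 for WI against sham, IR against WI and IR against sham. The largest difference was that of Ep300, an acetyltransferase and coactivator of p53, with an FPKM of 4.45 in sham, 3.04 in WI and 1.81 in IR. In TPM 3 of the 20 were lower in IR than in WI and 7 lower than in sham, none higher, where 11% and 14.4% of all genes were lower. With a pseudocount of 0.1, 1 was lower in IR than in WI and 3 lower than in sham, and Ep300 alone was past 2-fold, lower in IR than in sham, after scaling by the median ratio.

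Of 26 cyclins, cyclin-dependent kinases, their inhibitors and retinoblastoma proteins, 22 passed the filter and none changed 2-fold between WI and sham, though with a pseudocount of 0.1 there were 2, 1 higher and 1 lower. Ccnl1, a cyclin of pre-mRNA splicing, rose from 9.20 in WI to 32.3 in IR (13.4 in sham), and the mitotic cyclin gene Ccnb2 from 0.338 to 2.34 (0.944 in sham). Cdkn2d, another kinase inhibitor gene, was higher in IR (4.81) than in sham (1.81). As deposited, 5.78% of all genes rose and 1.43% fell from WI to IR, and 5.35% were higher and 2.15% lower in IR than in sham. In TPM, 2 of the 22 were higher and 2 lower in IR than in WI, where 3.57% of all genes were higher and 11% lower. Against sham none of the 22 was higher and 1 lower in TPM, where 2.96% of all genes were higher and 14.4% lower. With a pseudocount of 0.1, 5 were higher in IR than in WI and 4 than in sham. Of 24 genes of proliferation, 13 passed the filter, and E2f8, a repressor of the E2F family, had an FPKM of 1.91, 0.453 and 5.16 in sham, WI and IR. It rose with Birc5 from WI to IR, and with Cdc20 it was higher in IR than in sham, while none of the 13 was lower past 2-fold in any comparison as deposited. E2f8 missed 2-fold between WI and sham only narrowly, at -0.9996 with bounds apart, and was past it after scaling by the median ratio. In TPM and with a pseudocount of 0.1, 2 of the 13 were lower in WI than in sham, where 1.68% of all genes were lower in TPM. In TPM E2f8 alone was higher in IR than in WI, and Rrm2 alone was past 2-fold, lower, in IR against sham. Birc5 stood at 1.55, 0.852 and 2.79, and Cdc20 at 0.512, 0.575 and 2.15.

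Of 11 kinases through which GADD45 proteins act, 9 passed the filter. Of these, none changed 2-fold from sham to WI or from WI to IR, and Map2k3, an activator of p38, was higher in IR (57.0) than in sham (27.0), though under 2-fold after either rescaling. In TPM Map2k6 and Mapk9 were lower in IR than in WI, and against sham Map2k6 was lower and none higher. Among the 11 relatives of Btg2 and subunits of the CCR4-NOT deadenylase, Btg3 fell from 2.49 in sham to 0.000134 in WI and was listed at 0 in IR. None of the others passed 2-fold, and in TPM Tob1, Cnot1 and Cnot8 were lower in IR than in WI and Tob1 and Cnot1 lower than in sham. For both lists, the deposited shares of all genes were 1.1% lower in WI than in sham, and 5.35% higher and 2.15% lower in IR than in sham. In TPM 11% of all genes were lower in IR than in WI and 14.4% lower than in sham.

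**Figure D5:**
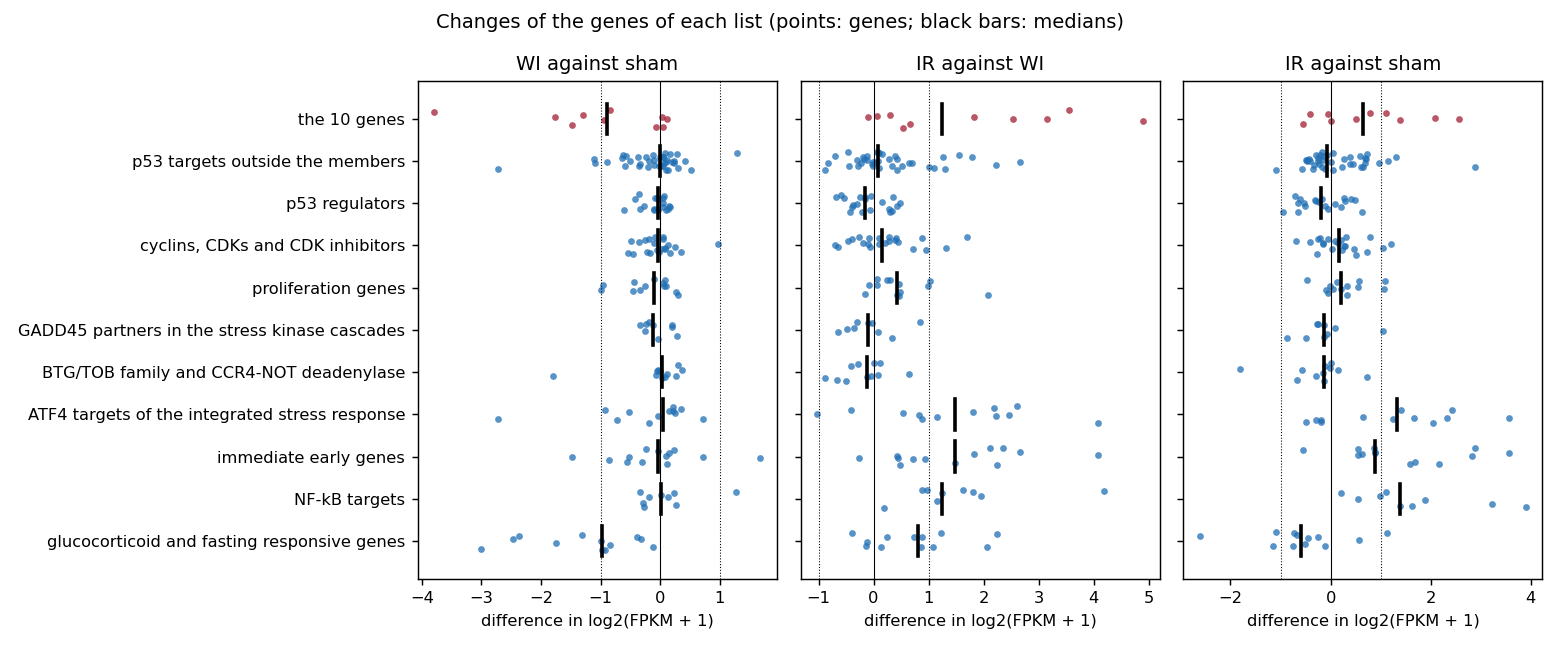
Difference in log2(FPKM + 1) of the genes of each list that passed the filter, 1 point a gene, with black bars at the medians and dotted lines at 2-fold, in the 3 comparisons. In WI against sham the medians of the 10 genes (-0.89) and of the glucocorticoid and fasting responsive genes (-0.98) lie lowest, and those of the other lists lie near 0.

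Lists of pathways that share targets with p53 were set beside these. Over all genes, 1.1% fell and 0.751% rose between WI and sham (1.68% and 0.88% in TPM). From WI to IR 5.78% rose and 1.43% fell (3.57% and 11% in TPM). In IR 5.35% were higher and 2.15% lower than in sham (2.96% and 14.4% in TPM). Among 12 targets of ATF4, the factor of the integrated stress response, 1 fell (Ddit4) between WI and sham, joined in TPM by Chac1, and from WI to IR 7 rose and 1 fell, with a median of 1.49 (6 and 1 in TPM). Atf3 rose most of them, with an FPKM of 8.72, 5.76 and 114 in sham, WI and IR. Between IR and sham 7 were higher and none lower (5 and 1 in TPM).

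Of 13 immediate early genes, Fos rose and Myc fell in the WI sample, and 7 rose from WI to IR, 6 of them also past 2-fold in TPM. Myc, which drives growth and represses Cdkn1a, had 7.42, 2.03 and 14.5. Between IR and sham 6 were higher and none lower, and in TPM 6 and 1. Of 9 NF-kB targets that passed the filter, 1 rose in WI (Cxcl1, from 8.13 to 21.1), and 6 were higher in IR than in WI and 6 than in sham (4 and 5 in TPM), with none lower.

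Genes induced by glucocorticoids and fasting were lower in the WI sample than in sham for all 12 listed, 5 of them past 2-fold (Fkbp5, Zbtb16, Lpin1, Pdk4 and Igfbp1; 7 in TPM), with a median of -0.98. Pdk4, which spares glucose by inhibiting pyruvate dehydrogenase, had an FPKM of 135 in sham, 16.1 in WI and 79.8 in IR. From WI to IR 4 of the 12 rose and none fell (2 in TPM), and between IR and sham 1 was higher and 3 lower (0 and 8 in TPM). Fkbp5, Zbtb16 and Pdk4 passed 2-fold in both steps, a fall and then a rise, with Pdk4 alone of them doing so in TPM.

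Markers of other liver cells also differed in level between the libraries. Summed over 8 Kupffer cell and macrophage markers the FPKM was 497 in sham, 254 in WI and 165 in IR, and over the 7 neutrophil markers found, of 8, it was 25.5, 19.4 and 460, with Mpo at 0 in the IR sample. The sum of 4 erythroid markers was 1018, 693 and 2719. The 8 endothelial markers summed to 150, 107 and 125, the 8 stellate markers to 150, 110 and 114, the 6 cholangiocyte markers to 54.3, 62.0 and 93.8, and 8 lymphocyte markers to 8.11, 6.66 and 2.68. From WI to IR 3 of the 8 endothelial markers were higher and 5 lower, with Lyve1 alone past 2-fold (3.21 on the log2 scale). All 8 lymphocyte markers were under an FPKM of 1 in IR. Hepatocyte markers dominated, at 20732, 16455 and 23346 over 8 genes, of which Alb is listed at 0 in each library because its locus held too many fragments to be processed. As deposited, the sums of the erythroid, neutrophil and hepatocyte markers were lowest in WI and highest in IR, the order also seen for Cdkn1a, Btg2, Gadd45b and Gadd45g. These sums were not rescaled to TPM. Relative to the summed FPKM of each library, the hepatocyte sum was highest in sham and lowest in IR, which is not the order seen for those genes. Of the 7 hepatocyte markers that passed the filter, 3 were higher and 4 lower in WI than in sham, none past 2-fold. In unsorted liver tissue, fewer cells of a type and less RNA per cell cannot be told apart. The part of these shifts in the values of the 10 genes was not tested.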

How the data were processed

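Each library was read with its condition taken from the sample labels. Per the methods and processing notes, the authors mapped read pairs to mm10 with TopHat2 2.0.9 at default parameters and estimated expression with Cuffdiff of Cufflinks 2.0.2. Their deposited values are 1 FPKM per gene and library, each with 95% bounds and a status, which was OK for all 10 genes in all libraries. They hold no counts, so depth and strand use are not known from them.

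Differences of log2(FPKM + 1) were taken over genes that reached an FPKM of 1 in 1 or more libraries, with a pseudocount of 1. A change was called at 2-fold. Intervals combined the distances from each FPKM to its deposited bounds by the square-and-add method. TPM and a scaling by the median ratio of genes at FPKM of at least 1 in all libraries were alternatives, with pseudocounts of 0.1 and 0.01 and none, other filters and fold thresholds of 1.5 and 4. Promoters came from RefSeq on GRCm38.p6.

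The 10 genes and the gene lists were chosen with earlier results of these data known. Genes named from a list are those past 2-fold in any comparison or, where none passed, the one with the largest change, and the 5 nearest to Cdkn1a. Listed genes were matched by symbol or by an older RefSeq symbol, and Ly6g, Hbb-bt, Trac and Trp53rkb were not analysed here. Python 3.11.15, numpy 2.4.6, pandas 2.3.3 and matplotlib 3.10.9 were used.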

Additional observations from a re-analysis of the deposited data

How the results depend on the processing

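Counts of the 10 genes past the threshold moved by over 1.5 times in 2 settings and, when split by direction, in TPM. At 4-fold, 1 gene was lower in WI than in sham (4 at 2-fold) and 2 were higher in IR than in sham (4 at 2-fold). Where the bounds also had to be apart, 2 were higher in IR than in sham. In TPM the 4 higher in IR than in sham became 2 higher and 1 lower. Over both directions, the counts under the other settings run were 3 to 6 for WI against sham, 4 to 6 for IR against WI and 3 to 5 for IR against sham. The median change of the 10 genes kept its sign in each setting run, from -1.04 to -0.89, from 0.75 to 1.31 and from 0.12 to 0.71 in the same order, with the lowest value of the last 2 in TPM. No change past 2-fold among the 10 genes turned direction in the settings run. Cdkn1a moved outside its interval with smaller pseudocounts, to -4.91 (0.1), -5.10 (0.01) and -5.12 (none, chosen after seeing the data) for WI against sham, and to 6.05, 6.24 and 6.26 for IR against WI. A pseudocount of 0.1 moved counts of p53 regulators, cyclins and proliferation genes, as given with those lists. The scaling of the 6 lists beyond p53 targets, p53 regulators, cyclins and proliferation genes was also added after seeing the data. Of all recomputed values, 300 stayed within their limits and 33 moved. The other filters could not move the 10 genes, because each reached an FPKM of 5 in at least 1 library. For a log2 change the limit was its interval, so a change that crossed 2-fold could still count as within it. Cdkn1a in IR against sham, at 1.11 as deposited and 0.55 in TPM, is such a case.

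No paired analysis was possible because each condition has 1 library, and leaving out a replicate was not possible for the same reason. The bounds, about 52.0% of the FPKM to either side, limit what a single library can show, and variation between mice was not measured.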
